A study of Mus musculus with 13 samples.

Results

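The Wnt genes followed here are 5 ligands (Wnt2, Wnt5a, Wnt7a, Wnt7b and Wnt11), 2 secreted inhibitors (Sfrp1 and Wif1) and 3 target genes of Wnt/β-catenin signalling (Axin2, Lef1 and Nkd1). These 10 genes were chosen by symbol from the 32544 gene symbols of the deposited count table, and all 10 were found. They were measured in lung of wild-type male C57BL/6J mice, bought at 7 weeks of age, that breathed either 21% oxygen (normoxia, 7 libraries) or 80% oxygen (hyperoxia, 6 libraries) for 5 days. The lungs were perfused and frozen whole, so each library holds the RNA of all lung cell types, and in such bulk samples fewer cells of a type and less RNA per cell cannot be told apart. Libraries were made by Quant-seq, which reads the 3′ end of polyadenylated transcripts. The labels name the libraries as separate samples but do not tie each to an animal, so the p-values measure the spread between these samples.

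Wnt proteins are secreted, lipid-modified ligands that bind Frizzled receptors and the coreceptors LRP5 and LRP6. In the canonical branch this binding halts the destruction complex of APC, Axin and GSK3, β-catenin enters the nucleus, and with TCF/LEF factors it switches on target genes, several of which feed back on the pathway. In adult lung, Wnt signals are known for maintaining a subset of alveolar type 2 cells next to Wnt-producing fibroblasts, and Wnt5a is the best known ligand of the β-catenin-independent branch.

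TCF/LEF factors bind a core of CTTTG on either strand (CAAAG on the other), and the upstream sequences of the 3 target genes are shown because these genes did not move together. The sequences are the 250 bases before a RefSeq transcription start in GRCm38.p6, and capitals mark the core.
Axin2 (chr11:108920099-108920348, plus strand): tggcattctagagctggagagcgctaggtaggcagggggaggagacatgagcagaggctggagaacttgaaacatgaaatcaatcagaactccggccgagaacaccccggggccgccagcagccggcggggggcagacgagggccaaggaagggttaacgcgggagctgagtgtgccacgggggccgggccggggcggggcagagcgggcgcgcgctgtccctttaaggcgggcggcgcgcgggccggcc
Lef1 (chr3:131110047-131110296, plus strand): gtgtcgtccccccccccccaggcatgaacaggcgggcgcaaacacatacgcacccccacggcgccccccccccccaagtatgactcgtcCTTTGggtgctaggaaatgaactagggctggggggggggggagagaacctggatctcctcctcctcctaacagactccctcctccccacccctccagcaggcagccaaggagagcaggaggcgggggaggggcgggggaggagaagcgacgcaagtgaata
Nkd1 (chr8:88527383-88527632, plus strand): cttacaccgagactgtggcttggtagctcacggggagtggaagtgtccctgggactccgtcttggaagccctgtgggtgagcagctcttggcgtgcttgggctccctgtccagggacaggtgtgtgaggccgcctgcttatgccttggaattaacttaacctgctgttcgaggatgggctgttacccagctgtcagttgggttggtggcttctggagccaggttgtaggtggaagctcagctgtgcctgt
The core is in the Lef1 window and not in the windows of Axin2 and Nkd1, and 48.6% of all 32851 RefSeq windows of the same length hold it. The Lef1 sequence belongs to the most upstream of its 4 windows, and the other 3 hold 1 to 3 cores each. The Axin2 window overlaps no annotated exon, that of Nkd1 lies inside the gene in an intron of the GENCODE annotation, and that of Lef1 overlaps an exon of the antisense gene Gm43352. The longer form CTTTGAT on either strand, which contains the core, stood in 3.21% of all windows and, among the 7 genes that had a window, in that of Wnt11. A match is a description of letters in the window and not a bound site.

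Of the 10 genes, 8 passed the filter on low counts and were tested, and 4 of the 8 differed between hyperoxia and normoxia at an adjusted p under 0.05 with edgeR's quasi-likelihood test. Of all 12496 genes tested, 22.6% did so, with 11.8% higher and 10.8% lower. The ligand Wnt2 and the target genes Axin2 and Lef1 were lower in hyperoxia, and the inhibitor Sfrp1 was higher. Wnt5a, Wnt7a, Wnt11 and Nkd1 did not pass the test, and Wnt7b and Wif1 were too low to enter it. In none of the 8 genes tested were the groups free of overlap, which was the case for 10.8% of all genes tested (5.6% higher and 5.23% lower in hyperoxia). Levels are given as CPM, that is counts relative to the TMM-scaled library total, log2 fold changes are of hyperoxia over normoxia, and standard errors (SE) come from the same fit.

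The total count was between 1607111 and 3387736 in the normoxic libraries and between 2029006 and 4540288 in the hyperoxic libraries, and a count of 3 corresponded to between 0.656 and 1.84 CPM. The lung label was checked by the summed level of 9 alveolar type 2 cell markers, which was at least 3439 CPM in every library. Hyperoxia replicate 1 stood apart, with correlations of log2 CPM to the other libraries of at most 0.833, and values without it stand beside several results below. By the first letter of their names, 5 normoxic and 3 hyperoxic libraries belong to a set B to M, while 2 normoxic and 3 hyperoxic ones belong to a set O to S, and fold changes were also fitted within each letter set.

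**Figure D1:**
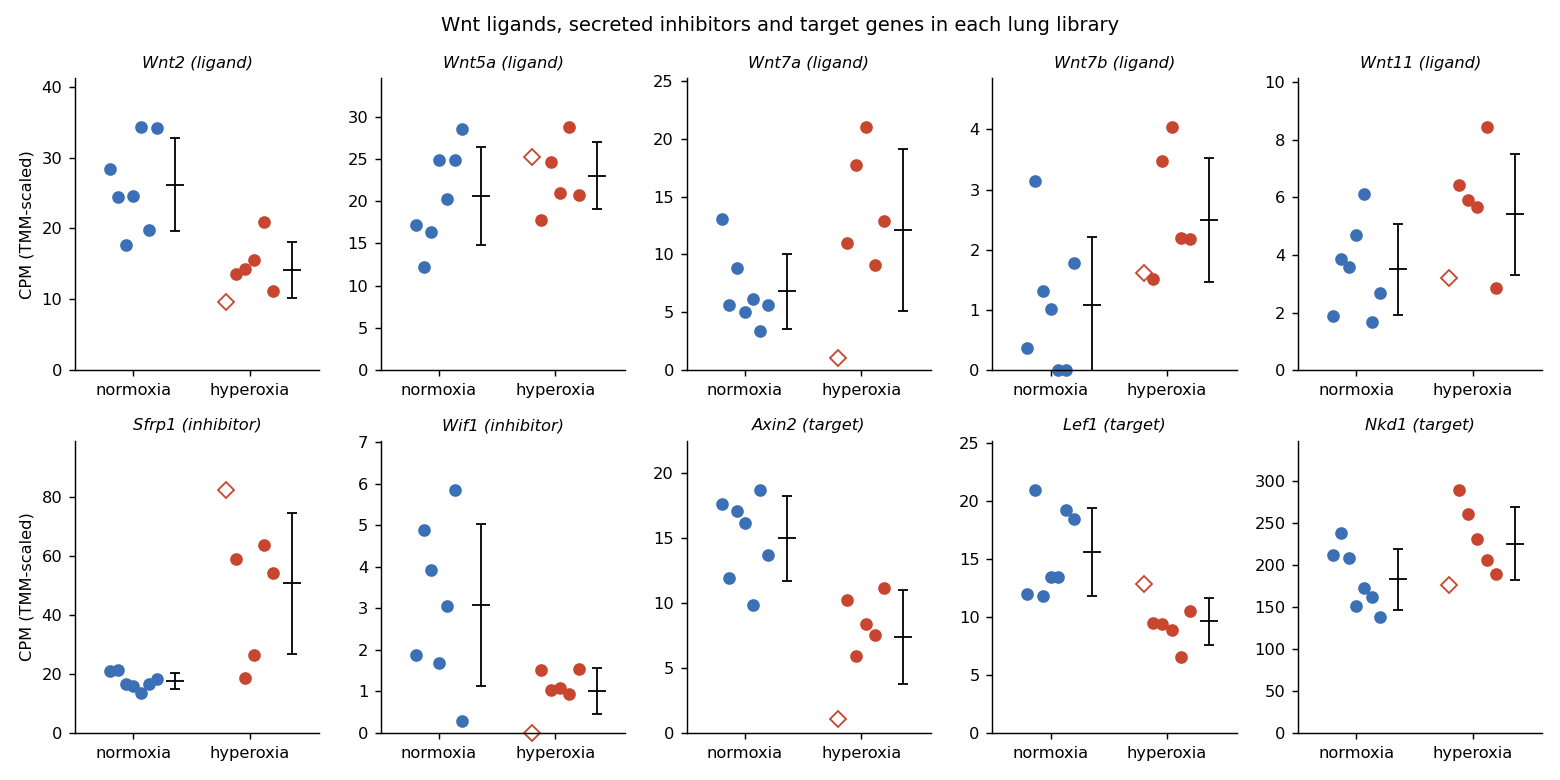
CPM (TMM-scaled, linear axes from 0) of the 10 genes in each of the 7 normoxic (blue) and 6 hyperoxic (red) libraries. Black bars are mean ± SD, the open diamond is hyperoxia replicate 1, and the bar of Wnt7b in normoxia is cut at 0. Wnt2, Axin2 and Lef1 sat lower in hyperoxia and Sfrp1 higher, with partial overlap in each.

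Among the ligands, Wnt2 was the gene that changed. Wnt2, which mesenchymal cells of the lung make and which takes part in lung specification in the embryo, is encoded at chr6:17988940-18030585 (GRCm38, as for all genes here, minus strand). In normoxia it stood at 28.4, 24.5, 17.7, 24.6, 34.3, 19.8 and 34.2 CPM in replicates 1 to 7. In hyperoxia it stood at 9.65, 13.6, 14.2, 15.6, 20.9 and 11.2 CPM in replicates 1 to 6. Thus 5 of the 6 hyperoxic libraries were below the lowest normoxic library, and replicate 5 overlapped the normoxic range. The mean fell from 26.2 ± 6.51 CPM over the 7 normoxic libraries (mean ± SD) to 14.2 ± 3.95 CPM over the 6 hyperoxic ones, a log2 fold change of −0.87 (SE 0.22, edgeR quasi-likelihood adjusted p = 0.00972). The exact permutation test of the difference in mean log2 CPM gave p = 0.00291 (two-sided), and the call held in all 13 fits that each left out 1 library. Within the letter sets the log2 fold change was −0.98 for B to M and −0.78 for O to S, and neither passed on its own (edgeR adjusted p = 0.0629 and 0.125). The sum of 7 alveolar fibroblast markers was lower, between 2501 and 2930 CPM in normoxia and between 1740 and 2102 CPM in hyperoxia. The single markers did not move together. Of the 6 tested, Pdgfra was higher (log2 fold change 1.19), Inmt and Npnt were lower (−1.97 and −0.75), and 3 were not called. The 6 had a median of −0.29, and none of the 7 was at 0 throughout a group. The part of these fibroblasts in the change of Wnt2 was not tested.

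Wnt5a, which acts mainly through Ror and Frizzled receptors without β-catenin, lies on chromosome 14 from 28504750 to 28527448 and shares exonic sequence with the antisense gene Gm2670. Its normoxic libraries ranged from 12.2 to 28.5 CPM with a median of 20.2 CPM, and its hyperoxic libraries from 17.8 to 28.8 CPM with a median of 22.8 CPM. The groups overlapped almost fully, with a log2 fold change of 0.15 (SE 0.21, edgeR quasi-likelihood adjusted p = 0.639). The sign differed between the letter sets, at 0.36 for B to M and −0.20 for O to S, and neither passed.

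Wnt7a and Wnt7b are close relatives that epithelial cells make. Wnt7a (chromosome 6, from 91363981 to 91411363) stood at 13.1, 5.59, 8.83, 5.05, 6.13, 3.34 and 5.65 CPM in the normoxic libraries and at 1.07, 11.0, 17.7, 21.0, 9.06 and 12.9 CPM in the hyperoxic ones. All hyperoxic libraries but replicate 1, which held 2 counts, were above the normoxic median of 5.65 CPM. The log2 fold change was 0.86 (SE 0.43) and did not pass (edgeR adjusted p = 0.169), whereas without hyperoxia replicate 1 it was 1.10 and passed (edgeR adjusted p = 0.0141). Within the letter sets it was 0.42 for B to M, which include replicate 1, and 1.66 for O to S, where it passed (edgeR adjusted p = 0.0330).

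Wnt7b (chromosome 15, from 85535437 to 85582473, sharing exonic sequence with the antisense gene AU022754) had 0 to 9 counts per normoxic library and 3 to 15 per hyperoxic library. That is a mean ± SD of 1.09 ± 1.13 CPM over 7 libraries and of 2.50 ± 1.03 CPM over 6, near the level of 3 counts. All 6 hyperoxic libraries were above the normoxic median of 1.01 CPM, and 2 were above every normoxic library. The difference in mean log2 CPM was 1.06 (exact permutation test, p = 0.0338, not adjusted), and it missed p of 0.05 in 5 of the 13 repeats that left out 1 library. In an edgeR fit with no filter on low counts the log2 fold change of Wnt7b was 1.18 (adjusted p = 0.223). Of 9 alveolar type 1 markers, taken as markers of the epithelial cells in which Wnt7a is found, 1 was higher and 1 lower. None were at 0, and their summed level was between 3611 and 4324 CPM in normoxia and between 4522 and 5984 CPM in hyperoxia. The median log2 fold change of the 9 was 0.0035, so the sum does not stand for most of these markers. Other epithelial markers were lower where called, in 6 of 9 alveolar type 2 genes and 3 of 7 club and ciliated genes. The part of these epithelial cells in the Wnt7a and Wnt7b values was not tested.

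Wnt11, a ligand of convergent extension movements in the embryo, lies on chromosome 7 from 98835112 to 98855195. It ranged from 1.67 to 6.13 CPM with a median of 3.60 CPM in normoxia and from 2.84 to 8.44 CPM with a median of 5.78 CPM in hyperoxia. With 5 to 27 counts per library and a log2 fold change of 0.67 (SE 0.35, edgeR quasi-likelihood adjusted p = 0.193), it did not pass the test. Within the letter sets it was 0.45 for B to M and 1.33 for O to S, and neither passed (edgeR adjusted p = 0.570 and 0.139).

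The inhibitor Sfrp1 had the largest fold change of the 8 genes tested. Secreted frizzled-related protein 1 binds Wnt proteins outside the cell, and its gene lies on chromosome 8 from 23411502 to 23449632. It was at 20.9, 21.3, 16.7, 15.8, 13.5, 16.4 and 18.4 CPM in the normoxic libraries and at 82.6, 58.9, 18.8, 26.4, 63.8 and 54.4 CPM in the hyperoxic ones. Hyperoxia replicate 3, at 18.8 CPM, was inside the normoxic range, and the other 5 were above it. The mean rose from 17.6 ± 2.82 CPM over the 7 normoxic libraries (mean ± SD) to 50.8 ± 24.0 CPM over the 6 hyperoxic ones, a log2 fold change of 1.52 (SE 0.28, edgeR quasi-likelihood adjusted p = 0.00122, exact permutation test, p = 0.00175). It was the only one of the 8 to pass a log2 fold change of 1.5 as well, which 3.91% of all genes tested did, and its value lay between 1.26 and 1.72 over the 23 alternative settings, so on both sides of that limit. The call at an adjusted p under 0.05 held in all 23, including both letter sets on their own (1.64 and 1.45), and without hyperoxia replicate 1, the highest library, the log2 fold change was 1.34. Of the markers of adventitial fibroblasts none of the 6 tested was called, and the list summed to between 511 and 828 CPM in normoxia and between 492 and 872 CPM in hyperoxia. Markers of smooth muscle and myofibroblasts were higher in 3 of 8 genes, with sums between 293 and 414 CPM in normoxia and between 471 and 839 CPM in hyperoxia. Neither list held a gene at 0 throughout a group, and the part of these cells in the rise of Sfrp1 was not tested.

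Wif1, Wnt inhibitory factor 1, which also binds Wnt proteins outside the cell, lies on chromosome 10 from 121033960 to 121100650 and was below the filter. It had 5, 14, 12, 5, 5, 21 and 1 counts in the normoxic libraries and 0, 4, 3, 4, 3 and 7 counts in the hyperoxic ones. Over the 7 normoxic libraries the mean ± SD was 3.08 ± 1.95 CPM, over the 6 hyperoxic ones it was 1.02 ± 0.557 CPM, and every hyperoxic library was below the normoxic median of 3.06 CPM. The difference in mean log2 CPM was −1.03 (exact permutation test, p = 0.0443, not adjusted), but it missed p of 0.05 in 10 of the 13 repeats that left out 1 library. Without the filter the edgeR log2 fold change was −1.46 (adjusted p = 0.102). The values of the 2 inhibitors thus lay on opposite sides of normoxia, with a call for Sfrp1 only.

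Of the 3 target genes, Axin2 and Lef1 fell and Nkd1 did not pass. Axin2, a scaffold of the destruction complex that is induced by β-catenin and limits its own pathway, lies on chromosome 11 from 108920349 to 108950783 and shares exonic sequence with the antisense gene Gm11670. It was at 17.5, 11.9, 17.0, 16.1, 9.80, 18.7 and 13.7 CPM in normoxia and at 1.07, 10.2, 5.91, 8.35, 7.50 and 11.2 CPM in hyperoxia. Every hyperoxic library was below the normoxic median of 16.1 CPM, 4 of 6 were below the lowest normoxic library, and hyperoxia replicate 1 was far below the rest, at 2 counts. The mean fell from 15.0 ± 3.26 CPM over the 7 normoxic libraries (mean ± SD) to 7.36 ± 3.61 CPM over the 6 hyperoxic ones, a log2 fold change of −0.99 (SE 0.33, edgeR quasi-likelihood adjusted p = 0.0386, exact permutation test, p = 0.00233). The call of Axin2 lies near the threshold. It was lost in 8 of the 13 fits that left out 1 library, with adjusted p of at most 0.0671, but without hyperoxia replicate 1 it held (−0.79, edgeR adjusted p = 0.0145). Within the letter sets the values were −1.27 for B to M and −0.85 for O to S (edgeR adjusted p = 0.147 and 0.0775).

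Axin2 is expressed by a subset of alveolar type 2 cells and by mesenchymal cells, and alveolar type 2 markers were lower in hyperoxia in 6 of 9 genes. Their summed level was between 12914 and 23946 CPM in normoxia and between 3439 and 7532 CPM in hyperoxia, with no overlap and no marker at 0. The part of these cells in the fall of Axin2 was not tested.

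Lef1, a TCF/LEF factor that partners with β-catenin and is a target of it, lies on chromosome 3 from 131110471 to 131224356 and shares exonic sequence with the antisense gene Gm43352. It was at 11.9, 21.0, 11.8, 13.5, 13.5, 19.2 and 18.4 CPM in normoxia and at 12.9, 9.45, 9.38, 8.89, 6.56 and 10.5 CPM in hyperoxia. Only hyperoxia replicate 1 reached the normoxic range. The mean fell from 15.6 ± 3.81 CPM over the 7 normoxic libraries (mean ± SD) to 9.61 ± 2.06 CPM over the 6 hyperoxic ones, a log2 fold change of −0.71 (SE 0.22, edgeR quasi-likelihood adjusted p = 0.0282, exact permutation test, p = 0.00350). It too lies near the threshold, since 8 of the 13 fits that left out 1 library lost the call, with adjusted p of at most 0.0817. The log2 fold change was −0.39 within letters B to M (edgeR adjusted p = 0.471) and −1.12 within O to S (edgeR adjusted p = 0.0253), and the difference between the sets was not tested.

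T cells are a known source of Lef1 mRNA, and T cell markers moved with it. All 6 of the 10 T cell markers that were tested were lower in hyperoxia, with a median log2 fold change of −1.21 against −0.03 over all genes tested. The summed level of the 10 markers was between 90.2 and 127 CPM in normoxia and between 38.0 and 55.9 CPM in hyperoxia, with no overlap and no marker at 0 throughout a group. The part of T cells in the fall of Lef1 was not tested.

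Nkd1, naked cuticle homolog 1, is induced by Wnt signalling and restrains it by binding Dishevelled. It lies on chromosome 8 from 88521354 to 88594884 and was the most abundant of the 10 genes. It was at 212, 238, 208, 152, 172, 162 and 139 CPM in normoxia and at 176, 290, 261, 231, 206 and 190 CPM in hyperoxia. All hyperoxic libraries were above the normoxic median of 172 CPM, but 4 of the 6 were inside the normoxic range. The log2 fold change was 0.30 (SE 0.16, edgeR quasi-likelihood adjusted p = 0.205), and it was between 0.23 and 0.46 in the 23 alternative settings, none of which called it.

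**Figure D2:**
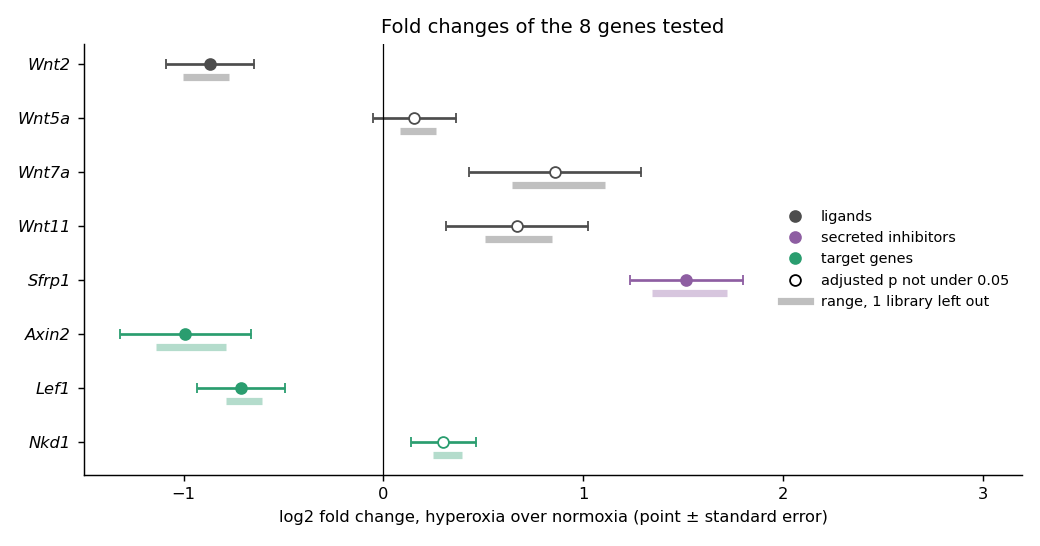
Log2 fold change (hyperoxia over normoxia) with its standard error for the 8 genes tested, coloured by role, filled where the adjusted p was under 0.05. Pale bars span the values of 13 fits with 1 library left out each. Wnt2, Axin2 and Lef1 lay below 0 and Sfrp1 above 0 in every such fit.

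Set side by side, the ligands tested had a median log2 fold change of 0.41 (n = 4), with 1 lower and none higher, and the target genes of −0.71 (n = 3), with 2 lower and none higher, against −0.03 over all genes tested. The sign of the ligand median depended on which ligands entered, since with at least 10 counts in every library only 2 ligands were left and it was −0.42. These medians hide that each role holds genes on both sides of 0. Since a call in 1 gene and none in another does not show that they differ, the log2 ratio of 2 genes within each library was compared between the groups for all 21 pairs of the 7 ligands and target genes tested. Each ratio is the difference of 2 log2 CPM values with a prior count of 2, so the scaling of a library cancels but for that prior count. In 10 of the 21 pairs the ratio differed at an adjusted p under 0.05 (two-sided exact permutation test, adjusted over the 21 pairs, smallest possible unadjusted p = 0.000583).

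The ligands did not move as 1 group. Wnt2 fell relative to Wnt5a, with a mean log2 ratio of 0.35 ± 0.47 (SD, n = 7) in normoxia and −0.70 ± 0.37 (SD, n = 6) in hyperoxia, a difference of −1.04 (exact permutation test, adjusted p = 0.00612). In every hyperoxic library Wnt2 was below Wnt5a and the ratio was below that of every normoxic library. Relative to Wnt11 it fell by 1.42 on the log2 scale (exact permutation test, adjusted p = 0.00612), and relative to Wnt7a by 1.39, which missed the threshold (exact permutation test, adjusted p = 0.0501) but passed without hyperoxia replicate 1 (−1.80, exact permutation test, adjusted p = 0.0118). Wnt5a, Wnt7a and Wnt11 were not told apart from each other in any of their 3 pairs (exact permutation test, adjusted p of at least 0.522). Without hyperoxia replicate 1 the change of Wnt5a against Wnt7a went from −0.35 to −0.88 (exact permutation test, adjusted p = 0.108 without it) and that of Wnt7a against Wnt11 from −0.03 to 0.37 (exact permutation test, adjusted p = 0.543 without it).

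The target genes did not move as 1 group either. Axin2 fell relative to Nkd1 by 1.45 on the log2 scale (exact permutation test, adjusted p = 0.0102) and Lef1 relative to Nkd1 by 0.96 on the log2 scale (exact permutation test, adjusted p = 0.0163). Without hyperoxia replicate 1 these differences were −1.12 and −1.11. The ratio of Axin2 to Lef1 changed by −0.49, with an SD of 1.22 among the hyperoxic libraries, and was not told apart from 0 (exact permutation test, adjusted p = 0.586), and without hyperoxia replicate 1 the change was −0.01.

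Across roles, Wnt2 could not be told apart from the 2 target genes that fell, with a change in log2 ratio of 0.29 to Axin2 and of −0.20 to Lef1 (exact permutation test, adjusted p = 0.663 for each). Without hyperoxia replicate 1 these changes were −0.01 and −0.02. It fell relative to Nkd1 by 1.16 on the log2 scale (exact permutation test, adjusted p = 0.00979). Wnt5a and Wnt11 rose relative to both Axin2 and Lef1, and Wnt7a relative to Axin2. The log2 ratio to Axin2 rose by 1.34 for Wnt5a, 1.68 for Wnt7a and 1.71 for Wnt11 (exact permutation test, adjusted p = 0.0157, 0.00612 and 0.0163). In hyperoxia replicate 1 both Axin2 and Wnt7a held only 2 counts. Without that library the rises were 0.91, 1.79 and 1.43 (exact permutation test, adjusted p = 0.0289, 0.00884 and 0.0354). The ratio to Lef1 rose by 0.84 for Wnt5a and 1.22 for Wnt11 (exact permutation test, adjusted p = 0.00612 and 0.0330), whereas for Wnt7a the change was 1.19 and did not pass (exact permutation test, adjusted p = 0.173). That call turned on hyperoxia replicate 1, without which the ratio of Wnt7a to Lef1 rose by 1.78 (exact permutation test, adjusted p = 0.0106). Against Nkd1, none of Wnt5a, Wnt7a and Wnt11 passed (exact permutation test, adjusted p of at least 0.586). The change of Wnt7a against Nkd1 depended on hyperoxia replicate 1, at 0.23 with it and 0.67 without it (exact permutation test, adjusted p = 0.734 and 0.0693).

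**Figure D3:**
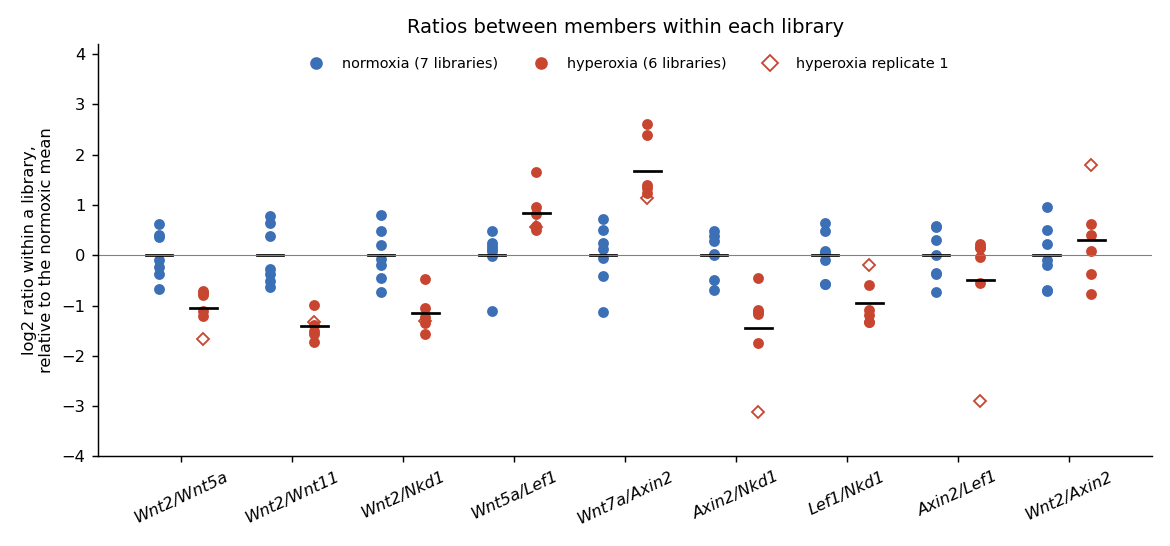
Log2 ratio of 2 genes within each library for 9 of the 21 pairs, set to 0 at the normoxic mean, for 7 normoxic (blue) and 6 hyperoxic (red) libraries, with black lines at the group means and an open diamond for hyperoxia replicate 1. The ratios Wnt2/Wnt5a, Wnt2/Wnt11, Wnt5a/Lef1 and Wnt7a/Axin2 did not overlap between the groups, while Axin2/Lef1 and Wnt2/Axin2 did.

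As Quant-seq takes its reads from the 3′ end, a count is not scaled to transcript length, and the CPM of different genes can be set in order with that assumption. In normoxia the order was Nkd1 (183 CPM), Wnt2 (26.2), Wnt5a (20.6), Sfrp1 (17.6), Lef1 (15.6), Axin2 (15.0), Wnt7a (6.81), Wnt11 (3.50), Wif1 (3.08) and Wnt7b (1.09), as mean CPM. Only Nkd1 was above the next gene in every library, and all other neighbours overlapped. In hyperoxia Sfrp1 moved to the second place (50.8 CPM), Wnt5a (23.0 CPM) stood above Wnt2 (14.2 CPM), and Wif1 (1.02 CPM) came last.

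The rest of the pathway was followed with 102 other genes in lists by role, of which 73 were tested. Of these, 9 were higher and 17 lower in hyperoxia (35.6% called, against 22.6% of all genes tested), and the median log2 fold change was −0.12. As these lists too were chosen with earlier results of these data known, the larger share cannot be read as an enrichment. The remaining 14 Wnt ligands added little, since only Wnt4 and Wnt9a passed the filter, and neither was called. Neither Porcn nor Wls, which lipidate and export Wnt proteins, was called.

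Among receptors, 1 of the 14 tested was higher and 3 were lower (28.6% called). Fzd4, a Frizzled of endothelial cells that also binds norrin, rose from 123 ± 13.5 to 199 ± 47.2 CPM (log2 fold change 0.70, edgeR adjusted p = 0.00386, call lost in 2 of 23 settings). Fzd2 fell from 52.5 ± 8.85 to 24.7 ± 5.25 CPM (log2 fold change −1.09, edgeR adjusted p = 0.000412) and Fzd7 from 15.2 ± 6.36 to 5.04 ± 1.57 CPM (log2 fold change −1.61, edgeR adjusted p = 0.0017). Both were without overlap between the groups, as were 5.23% of all genes tested in this direction. Fzd6 was lower (−0.93), but lost its call in 9 of 22 settings. Of the R-spondin axis, whose secreted ligands keep Frizzled receptors on the cell surface, Rspo1 fell from 9.97 ± 1.87 to 3.50 ± 1.91 CPM (log2 fold change −1.45, edgeR adjusted p = 0.0108, call lost in 3 of 22 settings), and the other 5 genes tested were not called.

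The other secreted inhibitors were lower where they were called, unlike Sfrp1. Sfrp2, its close relative, fell from 9.51 ± 2.93 to 4.81 ± 1.88 CPM (log2 fold change −0.99, edgeR adjusted p = 0.0261), and Dkk3, a member of the Dickkopf family, from 48.9 ± 10.2 to 31.7 ± 9.58 CPM (log2 fold change −0.62, edgeR adjusted p = 0.0415). These calls were lost in 11 of 22 and 12 of 23 settings.

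Inside the cell, 2 of 13 genes of the Dishevelled and destruction complex list were higher and none lower. That is 15.4% called, against 22.6% of all genes tested. The β-catenin gene, Ctnnb1, was not called (log2 fold change −0.59, edgeR adjusted p = 0.366), with 15 counts in its lowest hyperoxic library. Csnk1a1, the kinase that primes β-catenin for degradation, rose from 392 ± 61.1 to 679 ± 152 CPM (log2 fold change 0.79, edgeR adjusted p = 0.00218), and Tnks, a tankyrase that marks Axin for degradation, had a log2 fold change of 0.41 that lost its call in 15 of 23 settings. Of 13 TCF factors and nuclear cofactors, 5 were lower and none higher (38.5% called), with a median of −0.52. Tcf7l2, a TCF factor, fell from 105 ± 6.38 to 73.2 ± 9.19 CPM (log2 fold change −0.52, edgeR adjusted p = 0.00493, call lost in 2 of 23 settings) and Tle2, a Groucho corepressor, from 9.55 ± 1.85 to 3.49 ± 1.72 CPM (log2 fold change −1.42, edgeR adjusted p = 0.0026). Pygo1, Bcl9 and Tle1 had log2 fold changes of −0.84, −0.73 and −0.48, and their calls were lost in 3, 15 and 5 of 23 settings.

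Target genes outside the 3 members went both ways, with 4 of 12 higher and 3 lower (58.3% called). Sp5, a repressor induced by β-catenin, fell from 5.14 ± 2.26 to 0.490 ± 0.542 CPM, with at most 4 counts in any hyperoxic library. It passed the filter only through its 8 to 26 counts in normoxia. Its call (log2 fold change −3.43, edgeR adjusted p = 0.000503) thus rests on a group near 0 counts and is not read further. The difference in mean log2 CPM was −2.37. Tnfrsf19, also known as Troy, fell from 52.0 ± 6.81 to 24.0 ± 5.81 CPM (log2 fold change −1.12, edgeR adjusted p = 0.000194), and Bambi, a pseudoreceptor of the TGF-β family, was the other gene called lower, with a call lost in 4 of 22 settings. Cyclin D1, Ccnd1, rose from 218 ± 35.2 to 760 ± 233 CPM (log2 fold change 1.80, edgeR adjusted p = 1.13e-05), and Sox9, Wisp1 and Myc had log2 fold changes of 1.61, 1.59 and 2.36. Ccnd1, Myc and Sox9 answer to many pathways beside Wnt. Myc had 0 counts in 1 hyperoxic library, lost its call in 4 of 21 settings and gave p = 0.0717 in the exact permutation test.

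Of 11 genes of planar cell polarity and other β-catenin-independent Wnt signalling, 2 were higher and 3 lower (45.5% called). Prickle1 and Prickle2, cytoplasmic proteins of the polarity complex, fell from 38.4 ± 6.45 to 12.7 ± 3.91 CPM and from 64.2 ± 9.39 to 29.7 ± 6.12 CPM (log2 fold changes −1.62 and −1.11, edgeR adjusted p = 4.22e-05 and 0.000156), without overlap between the groups. Vangl2 was lower (−0.85) with a call lost in 14 of 23 settings, and the small GTPases Rac1 and Rhoa were higher by 0.44 and 0.41 on the log2 scale, with calls lost in 3 and 6 of 23 settings.

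Of the other called genes with values above, Fzd2, Fzd7, Tle2 and Tnfrsf19 each lost the call in 1 setting, a letter set on its own. Csnk1a1, Ccnd1, Wisp1, Sox9, Prickle1 and Prickle2 lost it in none of 23. Sp5 entered only 16 settings, being below the filter in the others, so its lack of a lost call says less.

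**Figure D4:**
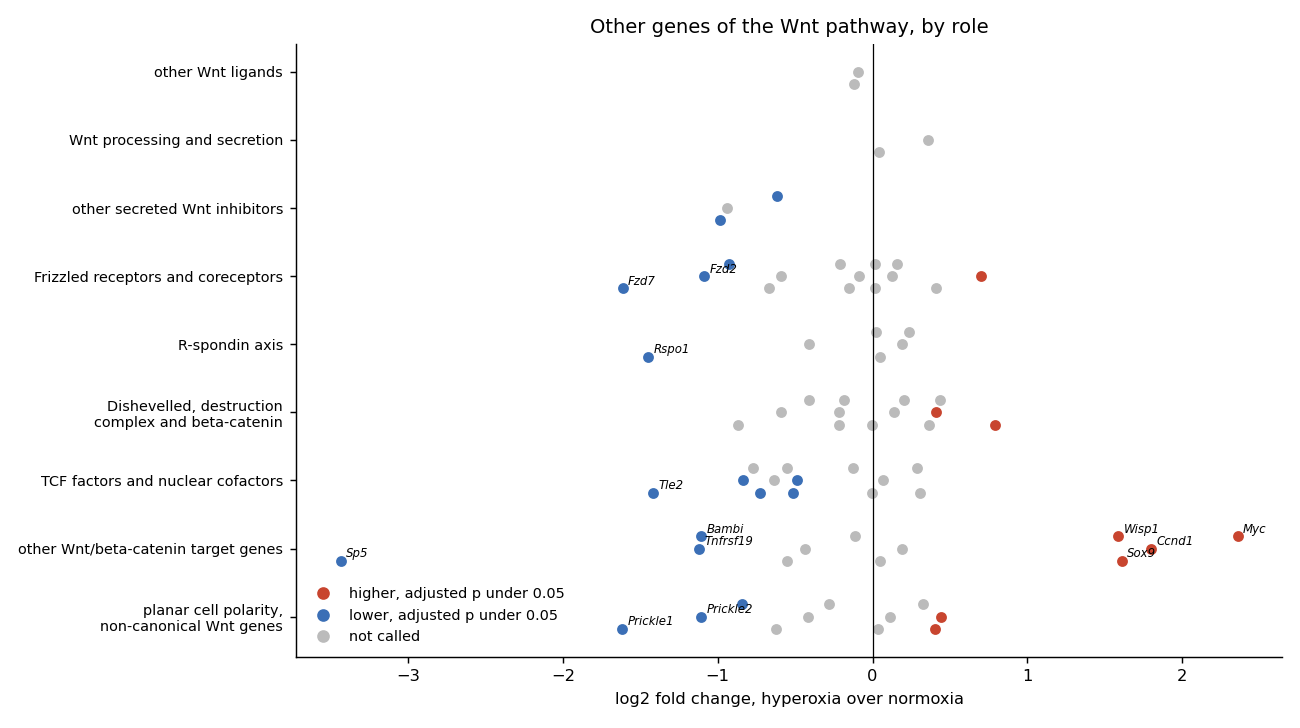
Log2 fold change (hyperoxia over normoxia) of each other Wnt pathway gene tested, by role, in red or blue where the adjusted p was under 0.05 and grey otherwise. Names are given for called genes beyond 1 on the log2 scale, from Sp5 at −3.43 to Myc at 2.36. The value of Sp5 rests on 0 to 4 counts per hyperoxic library.

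**Figure D5:**
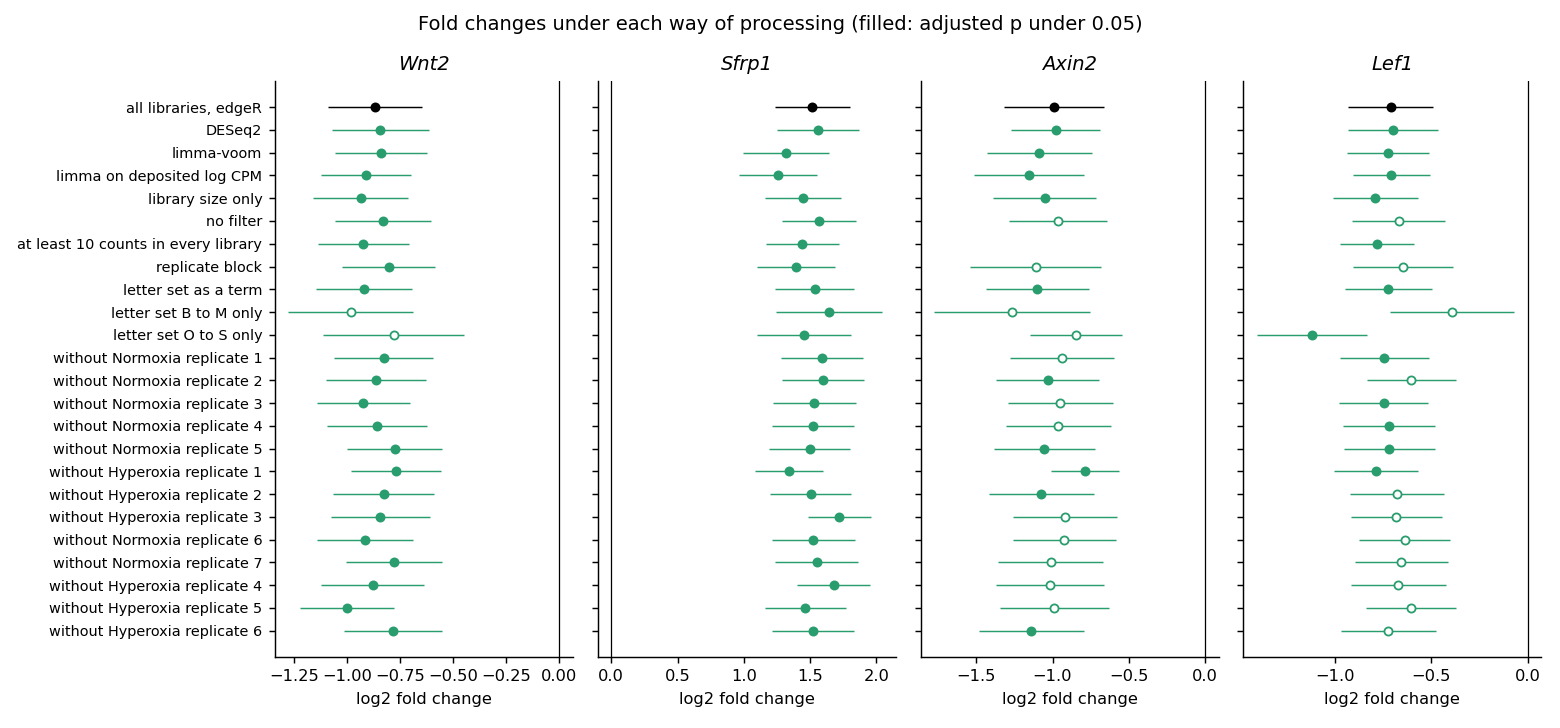
Log2 fold change with its standard error of the 4 genes called, under all libraries (black) and each alternative (green), filled where the adjusted p was under 0.05. Sfrp1 passed in all settings, Wnt2 in all but the 2 single letter sets, and Axin2 and Lef1 lost the call in 12 and 11 settings.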

How the data were processed

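Lung RNA was measured in 13 libraries (7 normoxia, 6 hyperoxia) by Quant-seq 3′ mRNA-seq. The raw counts per gene symbol are as deposited, and the submitters' notes name kallisto, limma 3.54.2 and mm10. The authors also deposited log10 values of CPM plus 1, which were recomputed from the counts to within 8.9e-16. No source says whether counting used strand, and without it reads of a gene and an antisense partner cannot be told apart. Groups came from the sample titles.

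The raw counts were filtered with filterByExpr (minimum count 10), which left 12496 genes, scaled by TMM and tested over all of them with edgeR 4.0.16 (quasi-likelihood, R 4.3.3), with Benjamini-Hochberg adjustment and a threshold of 0.05. Log2 CPM used a prior count of 2. Single values were compared by two-sided exact permutation over all splits of 7 against 6. The members and lists were chosen with earlier results of these data known. Named genes are all 10 members, the called genes of each pathway list (values for at most the 6 with the smallest adjusted p in a list) and the 3 genes most like Axin2 and the most abundant ligand by mean log2 CPM. Some pathway genes that were not called or had no count in a group, and a few markers, are named as well. The comparison of gene pairs was added after the data were seen, as was the use of the planned permutation test as the main test of the 2 genes below the filter. Alternatives were DESeq2 1.42.0, limma 3.58.1 (voom, and the deposited log10 CPM), library size scaling, no filter, a minimum of 10 counts in each library, a replicate block, letter sets, a log2 fold change over 1.5, and leaving out each library. Positions are from GENCODE M21 (GRCm38), upstream sequences from RefSeq (GRCm38.p6, 7 of 10 genes had one). Ccn4 is listed as Wisp1. Scripts were tested on simulated data.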

Additional observations from a re-analysis of the deposited data

Results flagged for a closer look

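A library was examined for standing apart within its group by Dixon's ratio, the gap to the nearest library over the range of the group, in 102 groups of values. Of these 11 exceeded the 95% limit, where chance gives about 1 in 20, or 5.1, and 7 of the 11 concern hyperoxia replicate 1.

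This library had the lowest hyperoxic value of Wnt7a (ratio 0.683), Wif1 (0.736) and Axin2 (0.694) among the 10 genes, and of the receptor Fzd6 (0.806) and the secreted Rspo1 (0.750) among the other pathway genes. Its value was the highest for the summed smooth muscle and myofibroblast markers (0.639) and the summed B cell markers (0.698). Hyperoxia replicate 6 was the highest for the summed cardiac muscle markers (0.869), at 297 CPM against at most 43.1 CPM in the other hyperoxic libraries.

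In normoxia, replicate 5 was the lowest in total count (0.612) and for Sfrp2 (0.628), and replicate 6 was the lowest for Fzd2 (0.701).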

How the results depend on the processing

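The direction of Wnt2, Sfrp1, Axin2 and Lef1 held in all settings run, and that of Wnt5a reversed within letters O to S (−0.20). Genes called numbered 2819, against 1344 with the replicate block, 1120 within letters B to M, 488 with a log2 fold change over 1.5, and 2305 to 3633 without 1 library. Of the 8 genes tested 4 were called, against 2 of 10 with no filter, 2 with the block, 1 within B to M, 1 with the log2 fold change over 1.5, and 2 to 5 without 1 library (5 without hyperoxia replicate 1, which adds Wnt7a). Other pathway genes called numbered 26, against 11 with the block, 10 within B to M, 7 with the log2 fold change over 1.5, and 18 to 28 without 1 library. With at least 10 counts in every library, which left 2 ligands and 2 target genes, the medians were −0.42 and −0.28, and without 1 library they were 0.30 to 0.52 and −0.79 to −0.61. Within B to M the median of the target genes was −0.39. The letter sets and the fits without 1 library hold fewer samples by construction, the minimum of 10 counts tests fewer genes and the fold change limit is a stricter call. For the other settings the cause was not tested. Deviations of libraries with the same replicate number correlated between −0.33 and 0.27. These values alone do not show whether the numbers pair the samples, which was not tested. With the replicate block Axin2 was at −1.11 (edgeR adjusted p = 0.131) and Lef1 at −0.65 (edgeR adjusted p = 0.145). Wnt7b, Wif1 and Wnt11 had few counts, and how much of their spread is counting error was not tested.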

Other observations

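Genes whose deviations from the group means were most like those of a member were sought over the 13 libraries, which differed in depth. The search covered 10112 genes whose log2 CPM averaged 3 or more. The highest r among so many genes over so few libraries can be large without a link between the genes. For Axin2 these were Fbxl12 (r = 0.96), Dok1 (0.95) and Cobll1 (0.95), and without hyperoxia replicate 1 the values were 0.77, 0.73 and 0.66. For Wnt5a they were Epha4 (r = 0.91), Gm7173 (0.90) and Zmat1 (0.87), and without hyperoxia replicate 1 they were 0.91, 0.90 and 0.87.

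Several ligands outside the 10 genes had no count throughout a group. Wnt8a had none in any library, Wnt6 and Wnt9b had none in normoxia, and Wnt1, Wnt8b and Wnt10a had none in hyperoxia. All of these were below the filter on low counts, so an empty group is not read as a difference.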
